A study of Mus musculus with 32 samples.

Results

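The LPS response of Nur77-deficient macrophages after 5 h was examined in 8 RNA-seq libraries, 4 of BMDM-Nur77-KO at 5 h of LPS (KO_5h) and 4 of the same genotype at 0 h (KO_0h), out of 32 libraries in the series. These 8 are all libraries with those genotype and time labels. BMDMs are macrophages grown from bone marrow, here from the femurs and tibias of male C57Bl6/J mice aged 6 to 12 weeks, cultured for 7 days with L929-conditioned medium, a source of macrophage growth factor. The knockout mice came from a cross of mice with a loxP-flanked Nr4a1 locus to mice expressing Cre from the human CMV promoter, so that the deletion is in every tissue and not restricted to macrophages. The labels give the genotype of these libraries as cre. The paper states, however, that the Nur77-KO mice it used no longer expressed Cre, and that the wild-type mice were their littermates. LPS, a bacterial cell wall component, was given at 100 ng/ml, and KO_0h is the untreated group. The 4 BMDM-WT libraries at 5 h (WT_5h) and the 4 at 0 h (WT_0h) serve as the comparison. Each group has 4 replicates, and the number of animals behind them is not stated, so that the p-values measure the spread between these libraries, which may be technical.

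Macrophages sense LPS through TLR4, which signals through MyD88 to NF-kB and AP-1 and through TRIF to IRF3. The primary response consists of genes that are transcribed within the first hour, among them immediate-early transcription factors, Tnf and Ifnb1. The interferon beta protein then acts on the cells through its receptor and JAK-STAT signaling, which acts on the interferon-stimulated response element (ISRE), so that by 5 h a secondary response of interferon-stimulated genes is added to that of NF-kB. Nur77, the product of Nr4a1, is itself an immediate-early nuclear receptor that LPS induces in macrophages.

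The targeted gene was examined first. Nr4a1 lies on chromosome 15 of mm10 from 101253902 to 101274795. Its level was 4.88, 4.57, 4.42 and 6.92 CPM (counts scaled to the size of each library) in the 4 KO_0h libraries and 0.108, 0.167, 0.29 and 0.69 CPM in the KO_5h libraries. In BMDM-WT, it was 19.6 ± 4.24 CPM (SD, n = 4) at 0 h and 0.932 ± 0.108 CPM (SD, n = 4) at 5 h. Every BMDM-Nur77-KO library was below every BMDM-WT library of its time, while reads on the gene remained in all of them. The table holds 1 value per transcript, so that reads from outside the deleted part are included and the remaining level is no measure of Nur77 protein. Within the knockout, the remaining Nr4a1 transcript fell from 0 h to 5 h by 4.01 on the log2 scale (SE 0.37, adjusted p = 5.4e-11, by the quasi-likelihood test of edgeR as for every adjusted p here), and the KO_5h libraries hold too few counts for a close estimate.

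The 8 libraries held 9271205 to 15165490 counts on genes, and all 9 macrophage markers examined were detected. Their summed level was 13382 to 15896 CPM in the KO_0h libraries and 13378 to 16622 CPM in the KO_5h libraries. The sum hides changes of single markers. By the limits given below, 3 were called higher at 5 h (Mertk, Fcgr1 and Cd14) and 6 were not called. The log2 fold changes of the 9 ran from -0.54 to 2.48. The library KO_5h replicate 1 stood apart from the other KO_5h libraries. Its log2 CPM differed from the mean of the other 3 with an SD over genes of 0.73, against 0.26, 0.42 and 0.45 for replicates 2, 3 and 4, and 0.21 to 0.29 for the KO_0h libraries. The deviation followed the GC content of the transcripts (Spearman's rho -0.65 across 10325 genes, which are not independent replicates). Its median was 0.51 in the genes below the first quartile of GC content and -0.71 in those above the third quartile. Replicates 3 and 4 sloped the other way relative to the rest (rho 0.55 and 0.59), as did KO_0h replicate 4 (0.60), while replicate 2 was flat (0.01). Results are therefore given per library for the main genes, and calls of named genes that were lost without KO_5h replicate 1 or with counts corrected for GC content are marked.

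**Figure D1:**
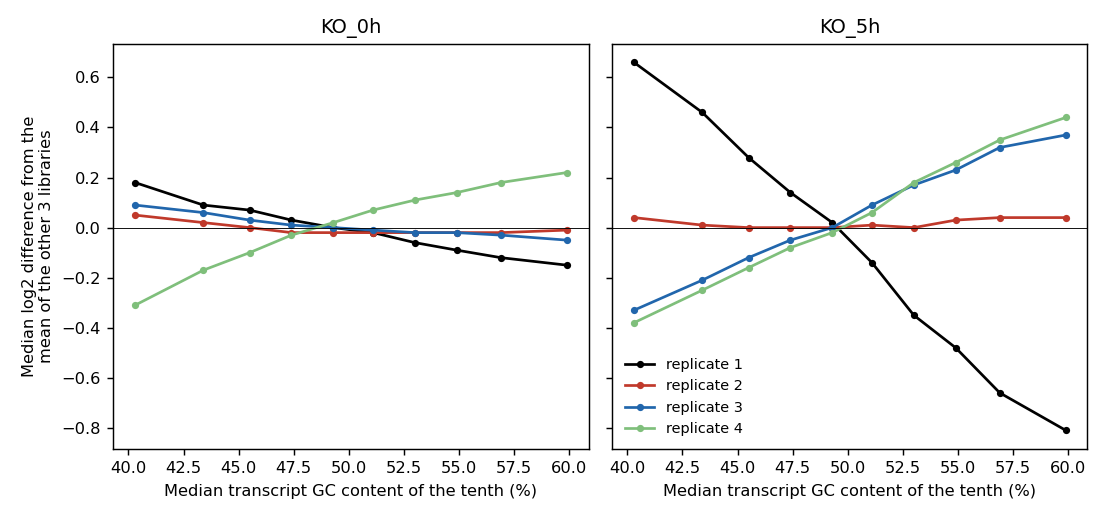
Median log2 difference of each library from the mean of the other 3 libraries of its group (vertical axis) in 10 equal bins of the genes ordered by transcript GC content in percent (horizontal axis), for KO_0h on the left and KO_5h on the right. KO_5h replicate 1 runs from 0.66 in the bin with the lowest GC content to -0.81 in the bin with the highest, the steepest line of the 8.

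After 5 h of LPS, 1841 of 11186 genes tested were higher in BMDM-Nur77-KO than at 0 h (16.5%) and 1779 were lower (15.9%). A gene was called when its log2 fold change was beyond 1 in size with an adjusted p under 0.05. The increases reached further than the decreases. A log2 fold change over 3 was found for 537 of the higher genes, and one under -3 for 188 of the lower genes. Over 5 on this scale were 220 higher genes, against 16 lower genes under -5. The median over all genes tested was -0.09. Without KO_5h replicate 1, 1735 genes were higher and 1717 lower. Of these, 1678 and 1596 were also called with all libraries, 91.1% and 89.7% of the calls with it and 96.7% and 93% of those without it. KO_5h replicate 1 was often at either extreme of the 4 libraries. Its CPM was the highest in 978 of the 1841 higher genes and the lowest in 582. Of the 1779 lower genes, it had the lowest CPM in 864 and the highest in 426.

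**Figure D2:**
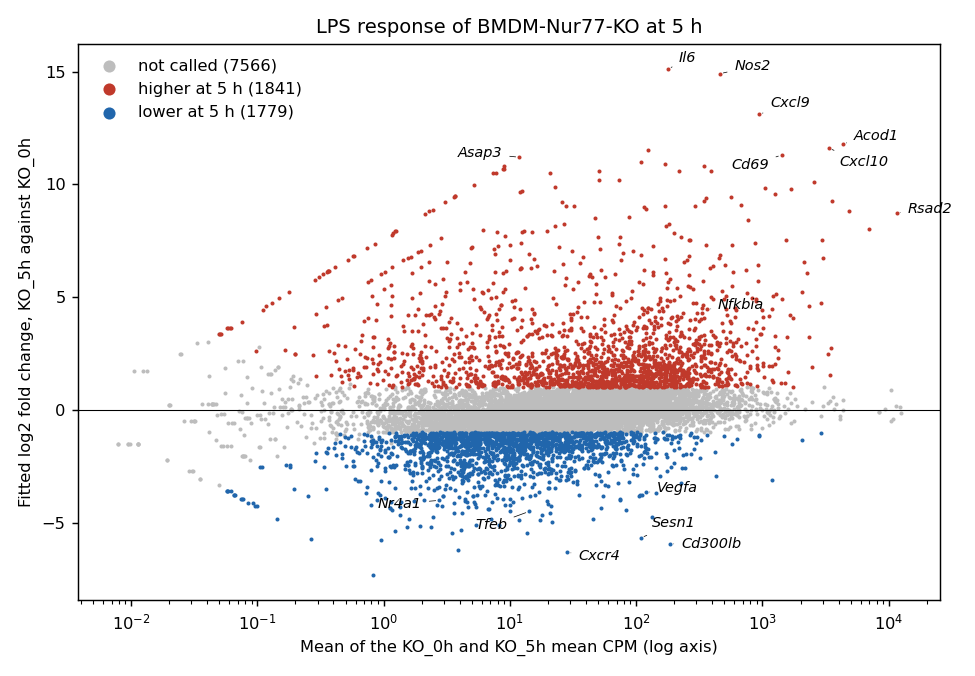
Fitted log2 fold change of KO_5h against KO_0h for the 11186 genes tested (vertical axis) against the mean of the 2 groups' mean CPM (horizontal axis, log scale). Red points are the 1841 genes called higher, blue points the 1779 called lower and grey points the rest, and the straight upper edge at low CPM is made of genes without counts at KO_0h, whose fitted value depends on the prior count.

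The 8 largest increases were those of Il6, Nos2, Cxcl9, Acod1, Cxcl10, Il12b, Cd69 and Asap3. Il6, a cytokine of the acute-phase response, had no counts in any KO_0h library and 492, 331, 303 and 302 CPM in the KO_5h libraries, at least 6226-fold higher when 3 counts over the KO_0h group are taken as the floor. Nos2, the inducible nitric oxide synthase, had 1 count in the 4 KO_0h libraries together and 771, 933, 986 and 982 CPM at 5 h. The ratio of 48763 for Nos2 has a 95% exact counting interval of 8752 to 1926094. Groups that do not overlap were a condition for naming these 8 genes, which 1776 of the 1841 higher genes met. The lowest KO_5h value of Il6 and of Nos2 was far above the spread among the libraries.

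The chemokines for the receptor CXCR3 followed. Cxcl9 was at 0.271, 0.375, 0 and 0.157 CPM before LPS and at 2855, 1980, 1354 and 1316 CPM after 5 h, an 8934-fold ratio of the group totals. Cxcl10 went from 1.81, 1.94, 2.13 and 2.99 CPM to 7096, 6589, 6591 and 6489 CPM (log2 fold change 11.55, SE 0.13, adjusted p = 8.8e-33). The spread of Cxcl9 among the KO_5h libraries was wide, with replicate 1 highest, whereas the Cxcl10 libraries lay close together. Acod1, which makes itaconate from a TCA cycle intermediate, rose from 2.44 ± 0.769 to 8667 ± 539 CPM (SD, n = 4 each), with a log2 fold change of 11.79 (SE 0.23, adjusted p = 1.8e-27). Il12b, the p40 subunit of IL-12 and IL-23, had 4 counts over the KO_0h group and 236 to 269 CPM at 5 h. Cd69, an early activation antigen, rose from 1.13 ± 0.456 to 2844 ± 481 CPM. Asap3, an ArfGAP, had no counts at KO_0h and 20, 24.1, 23.2 and 27.6 CPM at KO_5h, at least 420-fold higher.

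The 8 largest decreases were those of Cxcr4, Cd300lb, Sesn1, Tacc2, Ccsap, Plekhg3, Lpin1 and Cnr2. Cxcr4, the receptor of CXCL12, was at 53.6, 51.6, 53.5 and 66.1 CPM at 0 h and at 0.753, 0.753, 0.483 and 0.788 CPM at 5 h, and fell by 6.32 on the log2 scale (SE 0.23, adjusted p = 5.8e-21). Cd300lb, an activating receptor of the CD300 family, fell from 365 ± 11.7 to 5.95 ± 0.881 CPM. Sesn1, a stress-inducible sestrin that restrains mTORC1, fell from 213 ± 2.26 to 4.17 ± 0.668 CPM. Only genes with all KO_5h libraries below all KO_0h libraries were taken here, a condition that 1722 of the 1779 lower genes met. Tacc2, Ccsap, Plekhg3, Lpin1 (a phosphatidate phosphatase of lipid synthesis) and Cnr2 (the cannabinoid receptor of immune cells) had log2 fold changes between -5.46 and -4.87. Tacc2, with 25 counts in the 4 KO_5h libraries, spanned 0.0986 to 1.06 CPM among them.

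The interferon-stimulated antiviral genes, which encode proteins that block viral replication, rose nearly as a whole. Of 30 genes, all tested, 29 were higher and 1 was not called, with a median log2 fold change of 4.91. Without KO_5h replicate 1, the remaining gene was called lower. Rsad2, the antiviral enzyme viperin, was at 53.7, 46.2, 51.8 and 65.9 CPM at 0 h and at 27166, 22981, 21021 and 20914 CPM at 5 h (log2 fold change 8.73, SE 0.18, adjusted p = 4.7e-27). Per length, its mean level at KO_5h was 6087 RPKM (CPM per kilobase of transcript), the highest of this list, before Ifit2 with 3662 RPKM and Cmpk2, a nucleotide kinase encoded beside Rsad2, with 3040 RPKM. Ifit2, a sensor and inhibitor of viral RNA, spanned 11635 to 18406 CPM among the KO_5h libraries, with KO_5h replicate 1 highest, against 47.4 to 58.3 CPM at 0 h.

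The 2 members of this list with the highest RPKM at KO_5h whose promoter holds an ISRE are shown here, as the element that the secondary interferon response acts on. The motif was searched as 2 copies of GAAA with any 2 bases between them, on either strand, in the 250 bases before the gene start as RefSeq gives it on GRCm38.p6, and each match is in capitals. It is found in 3.05% of 27025 RefSeq promoters of this length. Of the 30 genes of this list, 22 have such a promoter, and 7 of the 22 hold the motif. The Rsad2 promoter is chr12:26456453-26456702 on the minus strand, with 1 match from -120 to -111 relative to the start. The Ifit1 promoter is chr19:34640639-34640888 on the plus strand, with matches from -104 to -95 and from -85 to -76. A match is a description of the letters and not evidence of binding.
Rsad2: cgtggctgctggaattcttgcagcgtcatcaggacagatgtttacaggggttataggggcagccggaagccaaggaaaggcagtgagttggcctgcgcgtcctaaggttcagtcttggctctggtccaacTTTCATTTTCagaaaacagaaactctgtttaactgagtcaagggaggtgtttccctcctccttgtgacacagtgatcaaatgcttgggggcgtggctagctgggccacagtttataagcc
Ifit1: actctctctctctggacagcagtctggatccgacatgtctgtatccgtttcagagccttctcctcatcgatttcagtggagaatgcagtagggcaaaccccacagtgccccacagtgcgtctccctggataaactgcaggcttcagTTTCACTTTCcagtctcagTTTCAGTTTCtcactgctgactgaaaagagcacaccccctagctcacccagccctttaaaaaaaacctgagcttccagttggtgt

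Ifit1, with 2 matches, rose from 13, 9.01, 11.6 and 12.9 CPM to 8043, 7067, 6730 and 6426 CPM (log2 fold change 9.25, SE 0.18, adjusted p = 2.2e-27). All 15 guanylate-binding proteins and immunity-related GTPases, which attack the vacuoles of intracellular pathogens, were higher, with a median log2 fold change of 7.32 and a range from 3.68 to 10.13. Gbp2 went from 31.1, 31.7, 31.7 and 30.8 CPM to 8540, 5844, 4471 and 4577 CPM. Gbp5, which also promotes inflammasome assembly, went from 4.51 ± 0.487 to 5068 ± 1110 CPM and Iigp1 from 3.75 ± 0.654 to 3355 ± 1075 CPM. KO_5h replicate 1 was highest in all 3. Members of these families, such as Gbp2 and Gbp2b or Tgtp1 and Tgtp2, are close copies, and how their reads were shared between them is uncertain.

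Of the 20 interferon beta, IRF and JAK-STAT genes, 15 were higher (17 without KO_5h replicate 1) and 1 lower, with a median log2 fold change of 1.77. Ifnb1, the interferon induced first by LPS, had no counts at KO_0h and 3.66, 5.52, 5.02 and 4.14 CPM at KO_5h. Among the transcription factors, Irf1 rose from 56.8, 51.5, 52.5 and 56.9 CPM to 988, 1202, 1229 and 1265 CPM (log2 fold change 4.43, SE 0.11, adjusted p = 2.4e-25). Irf8, a myeloid factor that pairs with IRF1, rose from 169 ± 12.6 to 1763 ± 111 CPM (log2 fold change 3.38, SE 0.08). Irf7, which amplifies interferon production, rose from 8.68 to 12.9 CPM in the 4 KO_0h libraries to 385 to 590 CPM in the KO_5h libraries. The kinase gene Jak2 rose from 51 ± 5.48 to 1594 ± 439 CPM. Irf4, a factor of alternatively activated macrophages, moved the other way, from 12.1 ± 0.733 to 1.01 ± 0.606 CPM (log2 fold change -3.58, SE 0.22, adjusted p = 2.9e-15). Irf3, Irf5, Stat6 and Tyk2 were not called.

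Cytokines and chemokines rose together. Of 18 cytokines tested, 16 were higher and 2 were not called (median log2 fold change 5.10, or 4.94 with the members at 0 counts before LPS at their lower bound), and Csf3 was below the expression limit. Il1b went from 1.36, 2.5, 1.83 and 3.46 CPM to 1998, 1983, 2275 and 2185 CPM (log2 fold change 9.83, SE 0.21, adjusted p = 9.5e-27) and Il1a from 3.23 ± 0.857 to 2530 ± 382 CPM. Il1rn, the antagonist of the IL-1 receptor, was already at 297 ± 18 CPM before LPS and rose to 2810 ± 725 CPM. Tnf, the prototype primary response cytokine, was at 26.2 to 32.1 CPM at 0 h and at 626, 1023, 1142 and 1185 CPM at 5 h, with KO_5h replicate 1 lowest. Il10, the main anti-inflammatory cytokine of macrophages, rose to 13 ± 1.09 CPM (log2 fold change 4.19, SE 0.20, adjusted p = 1.1e-17). Osm and Tgfb1 were not called, with log2 fold changes of 0.77 and -0.02. Osm lay at 0.861 CPM in KO_5h replicate 1 and at 4.85 to 8.87 CPM in the other 3, and was called higher without that library at 1.11.

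Of 20 chemokine ligands, 17 were higher and 3 were not called (median log2 fold change 4.47). Besides Cxcl10, the highest per length at KO_5h were Ccl5 with 2550 RPKM and Ccl3 with 2447 RPKM, which attract T cells and monocytes. Ccl5 rose from 1.27, 2.94, 2.59 and 2.99 CPM to 826, 1181, 1620 and 1800 CPM, and Ccl3 from 118, 173, 149 and 160 CPM to 2215, 1861, 1741 and 1681 CPM. The order of the KO_5h libraries was opposite in these 2 genes, which have a transcript GC content of 53.6% and 46.2%. Ccl9, already at 1987 to 2154 CPM at 0 h, reached 4048 to 4167 CPM, a log2 fold change of 1.00 that did not pass the limit.

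The NF-kB system rose with its own inhibitors. Of 24 genes for NF-kB subunits, IkB proteins and feedback inhibitors, 22 were higher and 1 lower (median log2 fold change 3.23). Nfkbia, whose product IkBα holds NF-kB in the cytoplasm, was at 28.6, 32.3, 30.9 and 35.1 CPM at 0 h and at 737, 658, 685 and 709 CPM at 5 h (log2 fold change 4.46, SE 0.08, adjusted p = 4.7e-28). Tnfaip3, encoding the ubiquitin-editing enzyme A20, rose from 131 ± 5.1 to 1563 ± 39 CPM, and Tnip3, an A20-binding protein, from 130 ± 9.23 to 1144 ± 429 CPM. The first 2 varied little among the KO_5h libraries, while Tnip3 spanned 831 to 1741 CPM. Socs3, the inhibitor of IL-6 signaling, went from 0.181, 0.563, 0.381 and 0.314 CPM to 366, 735, 806 and 855 CPM. Nfkbid, a nuclear IkB protein, was the 1 member called lower, at 20.6 to 29.5 CPM before LPS and 4.52 to 12.2 CPM after 5 h (log2 fold change -1.40, SE 0.21).

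Of the cytokine, chemokine and NF-kB genes called higher, the 2 with the highest RPKM at KO_5h and a kB motif in the same promoter window are shown, as the element NF-kB binds. The motif was GGANTTTCC on either strand, which 1.04% of the 27025 promoters hold. Most of the genes it was sought in lack it. It is in 2 of 12 promoters of the cytokines called higher, 4 of 10 of the chemokine ligands and 2 of 19 of the NF-kB list. The Cxcl10 promoter is chr5:92348890-92349139 on the minus strand, with a match from -158 to -150. The Nfkbia promoter is chr12:55492648-55492897 on the minus strand, with matches from -178 to -170 and from -29 to -21. Capitals mark the kB motif only. In lower case, the Cxcl10 sequence also holds GAAAGTGAAA, which matches the ISRE pattern searched above. It further holds TGAGTCA, a match to the AP-1 motif TGANTCA, as does the Rsad2 sequence above.
Cxcl10: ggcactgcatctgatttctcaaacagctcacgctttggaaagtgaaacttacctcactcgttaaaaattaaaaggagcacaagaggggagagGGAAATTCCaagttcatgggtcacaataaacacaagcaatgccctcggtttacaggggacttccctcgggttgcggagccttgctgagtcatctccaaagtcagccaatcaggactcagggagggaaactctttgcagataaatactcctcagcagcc
Nfkbia: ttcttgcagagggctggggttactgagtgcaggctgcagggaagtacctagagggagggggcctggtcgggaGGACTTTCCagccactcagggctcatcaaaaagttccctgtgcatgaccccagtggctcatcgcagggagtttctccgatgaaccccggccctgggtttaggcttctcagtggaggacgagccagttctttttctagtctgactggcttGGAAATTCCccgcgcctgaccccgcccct

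Across the protein-coding genes with a promoter in the RefSeq table, the motifs were counted as a description. The ISRE was found in 7.09% of 1396 promoters of genes called higher, 1.34% of 1340 called lower and 2.3% of 5862 not called. For the kB motif, the shares were 2.72%, 0.448% and 0.853%. For the AP-1 motif TGANTCA, found in 6.85% of all 27025 promoters, they were 7.09%, 3.81% and 3.75%. For the NBRE AAAGGTCA, the motif to which Nur77 binds as a monomer, found in 1.31% of all promoters, they were 0.788%, 0.896% and 0.751%. The promoters covered 80.7% of the 1730 protein-coding genes called higher, 80.7% of the 1660 called lower and 81.7% of the 7173 not called. The motifs were searched separately and their matches may overlap. The CpG ratio of the window, observed over expected, had a median of 0.673, 0.741 and 0.761 in the 3 sets.

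AP-1 and immediate-early genes, which are transcribed within minutes of LPS, were split by 5 h. Of 22 genes, 8 were higher, 5 lower and 9 not called (median log2 fold change 0.32). These are 36.4% higher and 22.7% lower, against 16.5% and 15.9% of all genes tested. Atf3, which limits the LPS response, rose from 393 ± 31.1 to 835 ± 61.7 CPM (log2 fold change 1.09, SE 0.07, adjusted p = 2.0e-15), and Batf2 from 2.04 ± 0.346 to 133 ± 42.5 CPM. Junb was at 68.9, 70.2, 74 and 81 CPM at 0 h and at 100, 207, 267 and 261 CPM at 5 h, with the increase smallest in KO_5h replicate 1. Fos, the partner of JUN proteins in AP-1, was already below its starting level, at 86.5 to 100 CPM before LPS and 34.1 to 45.2 CPM at 5 h (log2 fold change -1.19, SE 0.10, adjusted p = 5.6e-12), a call that was lost at -0.97 with GC-corrected counts. Egr2 fell from 182 ± 3.81 to 50.8 ± 1.53 CPM. Jun and Jund had log2 fold changes of 0.52 and 0.73 and were not called.

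The paralogs of Nur77 moved opposite to the remaining Nr4a1 transcript. Nr4a3 (NOR-1) rose from 0.543, 0.25, 0.457 and 0.786 CPM to 14.7, 10.9, 11 and 8.08 CPM (log2 fold change 4.47, SE 0.28, adjusted p = 7.9e-15). Nr4a2 (Nurr1) rose from 1.29 ± 0.154 to 5.24 ± 2.03 CPM, with KO_5h replicate 1 at 8.18 CPM and the others at 3.67 to 4.93 CPM. Their responses did not pass the test of a difference from BMDM-WT, where the log2 fold changes were 3.44 and 1.15 (adjusted p = 0.26 and 0.27).

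**Figure D3:**
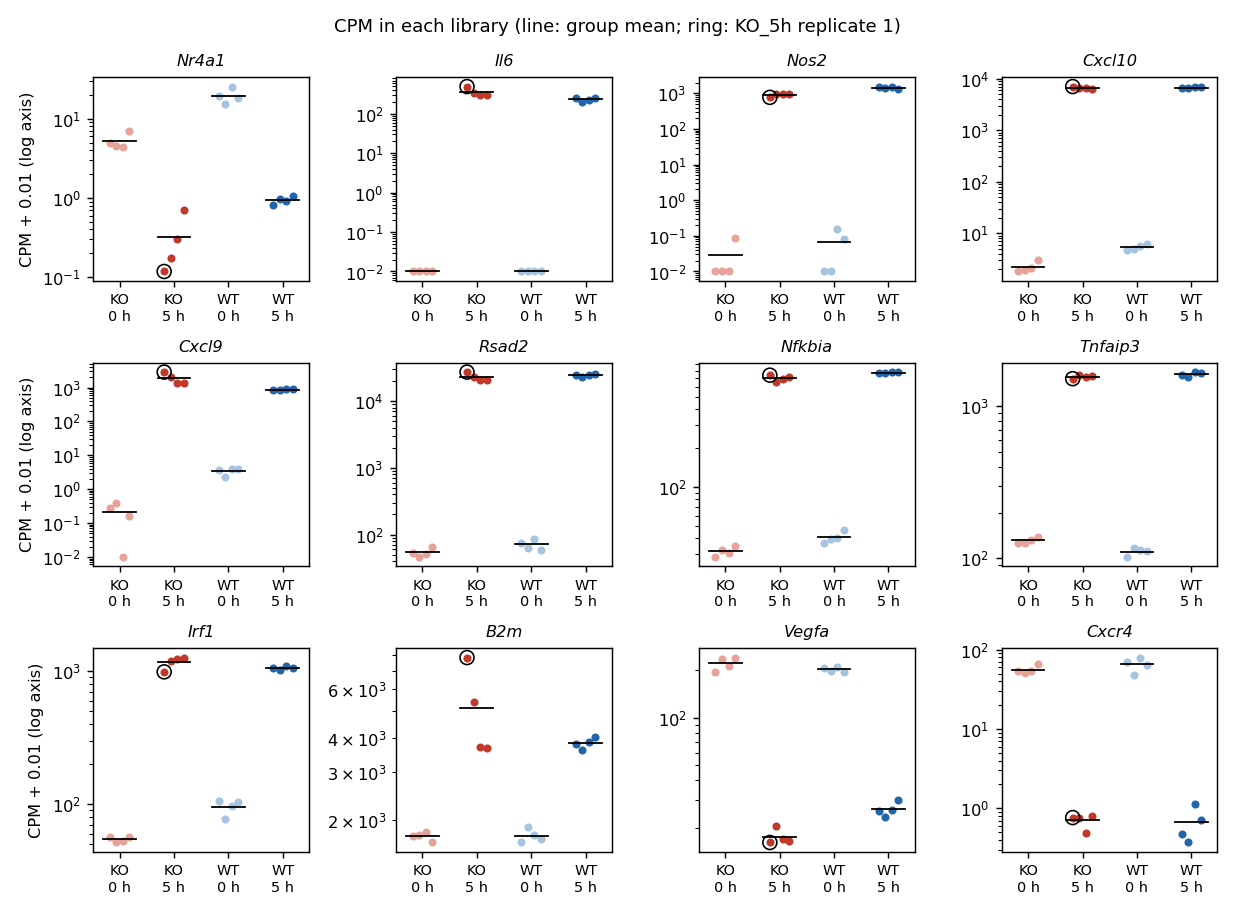
CPM plus 0.01 in each library (vertical axes, log scale) of 12 genes in the 4 libraries of BMDM-Nur77-KO at 0 h and 5 h and of BMDM-WT at 0 h and 5 h, with the group mean as a line and KO_5h replicate 1 ringed. B2m shows the spread of KO_5h, from 3657 to 7826 CPM, while Nfkbia spans 658 to 737 CPM.

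Genes of LPS sensing and the inflammasome were mostly higher, with 21 of 31 tested higher and 1 lower (median log2 fold change 1.67). Cd14, the LPS co-receptor, was at 340 to 425 CPM at 0 h and at 474, 901, 1220 and 1263 CPM at 5 h (log2 fold change 1.37, SE 0.18, adjusted p = 1.2e-07). Tlr4 itself was at 130 to 243 CPM at 0 h and 114 to 219 CPM at 5 h and was not called. Casp4, whose product caspase-11 binds intracellular LPS, rose from 22.8 ± 1.68 to 447 ± 105 CPM, Casp1 from 121 ± 7.76 to 584 ± 149 CPM and Nlrp3 to 755 ± 97.6 CPM (log2 fold change 3.24, SE 0.09, adjusted p = 2.5e-24). Tlr13, a receptor of bacterial ribosomal RNA, fell from 526 ± 48.1 to 119 ± 9.85 CPM (log2 fold change -2.14, SE 0.08).

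Enzymes of nitric oxide, itaconate, prostaglandin and amino acid metabolism were higher in 15 of 18 members tested, with 1 lower, or 2 lower without KO_5h replicate 1 (median log2 fold change 3.41). Ptgs2, the inducible cyclooxygenase, rose from 1.18 to 1.88 CPM in the KO_0h libraries to 932 to 1459 CPM in the KO_5h libraries, while Ptgs1, the constitutive one, fell from 14.5 ± 1.4 to 5.42 ± 2.28 CPM. Cybb, the catalytic subunit of the phagocyte NADPH oxidase, rose from 1033 ± 96.5 to 3890 ± 271 CPM and Nampt, which recycles NAD, from 118 ± 11.1 to 1432 ± 517 CPM.

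Most glycolysis and TCA cycle genes were not called. Of 21 glycolysis and HIF genes, 6 were higher and 1 lower, and the median log2 fold change was -0.22. These are 28.6% and 4.76%, against 16.5% and 15.9% of all genes tested. Those higher included Hif1a (143 ± 11.4 to 625 ± 218 CPM), the kinase gene Pfkfb3 (69.4 ± 2.28 to 246 ± 16.5 CPM) and Pfkp (94.1 ± 2.46 to 322 ± 17.3 CPM), which feed the rate-limiting phosphofructokinase step. Vegfa, a HIF target that drives vessel growth, was at 195, 236, 214 and 241 CPM at 0 h and at 16.1, 20.4, 17 and 16.4 CPM at 5 h (log2 fold change -3.66, SE 0.10, adjusted p = 7.4e-24). Of 19 genes listed for the TCA cycle, 18 were not called and 1 was lower (5.26%). This was Idh1, which encodes a cytosolic dehydrogenase rather than one of the mitochondrial cycle (297 ± 17.6 to 133 ± 6.85 CPM). Among 14 genes tested of the NRF2 list, which holds regulators of NRF2 beside its targets, 2 were higher (3 without KO_5h replicate 1) and 4 lower (median log2 fold change -0.12). With all libraries, these are 14.3% and 28.6%, against 16.5% and 15.9% of all genes tested. The cystine transporter Slc7a11 rose from 8.16 ± 2.01 to 97.8 ± 24 CPM and Keap1, the inhibitor of NRF2, from 35.2 ± 2.29 to 116 ± 18.4 CPM, whereas the glutathione synthesis gene Gclc fell from 45.8 ± 2.38 to 14.6 ± 3.94 CPM.

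Most genes of MHC class I presentation rose, and most of class II were not called. Of 23 class I and peptide-loading genes, 16 were higher and 7 were not called (median log2 fold change 1.72). B2m, the class I light chain, was at 1660 to 1808 CPM at 0 h and at 7826, 5373, 3693 and 3657 CPM at 5 h, a log2 fold change of 1.56 with all libraries and 1.28 without KO_5h replicate 1. Tapbp (tapasin) rose from 244 ± 14.6 to 1085 ± 103 CPM and Psme2, a proteasome activator subunit, from 57.3 ± 4.85 to 235 ± 69.8 CPM. Reads on the classical and nonclassical H2 genes may be shared between near-identical copies. Of 9 class II genes, 1 was higher, the transactivator Ciita (3.03 ± 0.358 to 13.1 ± 2.12 CPM), and 2 were higher without KO_5h replicate 1. With all libraries, this is 11.1%, against 16.5% of all genes tested. Of 11 costimulatory and checkpoint ligands, 10 were higher (median log2 fold change 3.50). Cd274, encoding PD-L1, rose from 64.8, 64.9, 67.2 and 66.2 CPM to 5903, 4553, 3739 and 3697 CPM and Cd40 from 4.47 ± 0.676 to 1517 ± 308 CPM.

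Surface receptors were higher more often than lower. Of 22 scavenger, phagocytic and lectin receptors, 9 were higher and 2 lower (median log2 fold change 0.57). These are 40.9% and 9.09%, against 16.5% and 15.9% of all genes tested. Clec4e, the receptor Mincle of mycobacterial glycolipids, rose from 7.21 ± 0.986 to 1134 ± 356 CPM and Msr1, scavenger receptor A, from 490 ± 32.8 to 1882 ± 548 CPM. Cd163, the hemoglobin scavenger receptor, fell from 14.1 ± 0.738 to 3.09 ± 0.902 CPM. Stab1, a scavenger receptor also named stabilin-1, was at 59, 116, 189 and 161 CPM in the KO_5h libraries and was called lower (log2 fold change -1.24). It no longer passed the fold change limit without KO_5h replicate 1, in which it was lowest, or with GC-corrected counts, at -0.96. Of 28 chemotactic, purinergic and adhesion receptors tested, 12 were higher (42.9%) and 4 lower (14.3%, near the share of all genes). Icam1, the ligand of leukocyte integrins, rose from 90.8 ± 5.61 to 2772 ± 593 CPM and Ccrl2 from 13.1 ± 1.63 to 388 ± 78.1 CPM, while Ccr2, the receptor of CCL2, fell from 85.5 ± 11.5 to 18.4 ± 3.8 CPM.

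Cell cycle genes were the lists with the largest shares of lower members. Of 22 DNA replication and G1/S genes, 10 were lower and 12 were not called (median log2 fold change -0.87), and of 20 mitosis and G2/M genes, 14 were lower and 1 higher (median log2 fold change -1.84). Rrm2, a subunit of ribonucleotide reductase, was at 39.3, 50.9, 43.9 and 45.4 CPM at 0 h and at 8.39, 10, 11.4 and 11.8 CPM at 5 h (log2 fold change -2.11, SE 0.12, adjusted p = 5.6e-16). Mcm3, of the replicative helicase, fell from 60.7 ± 6.35 to 18.8 ± 2 CPM. Cdk1, the kinase of mitotic entry, fell from 44.6 ± 6.5 to 14.8 ± 1.26 CPM and Top2a from 119 ± 17.2 to 45.7 ± 6.33 CPM. Tpx2, a spindle assembly factor, rose instead, from 37 to 44.9 CPM at 0 h to 191, 140, 113 and 110 CPM at 5 h (log2 fold change 1.75, SE 0.14, adjusted p = 2.1e-12). In bulk RNA, fewer cycling cells and less of these transcripts per cell cannot be told apart.

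Lipid genes showed no common direction. Among 22 cholesterol synthesis and SREBP2 genes, 4 were higher and 4 lower (median log2 fold change -0.10), or 3 and 2 without KO_5h replicate 1 (median 0.07). The 18.2% each way with all libraries were near the 16.5% and 15.9% of all genes tested. The higher ones included Insig1, which retains the SREBP complex in the endoplasmic reticulum (65.5 ± 5.65 to 156 ± 14.7 CPM), and the lower ones Sqle (46.4 ± 7.37 to 21 ± 2.59 CPM) and Dhcr7 (16.2 ± 1.99 to 4.72 ± 1.77 CPM), enzymes of the sterol pathway. Hmgcs1 was called higher at a log2 fold change of 1.03 and not at 0.84, its value both without KO_5h replicate 1 and with GC-corrected counts. Its call was also lost without KO_0h replicate 2 (0.99) or 4 (0.98). Of 14 LXR and lipid efflux genes, 3 were lower (21.4%, against 15.9% of all genes tested). Among them were Scd2, a fatty acid desaturase (394 ± 29.6 to 65.2 ± 13.4 CPM), and Fasn (49 ± 3.34 to 14.6 ± 5.59 CPM). Of 25 lysosomal genes, 24 were not called and 1 was lower (4%, against 15.9% of all genes tested). This was Tfeb, the transcription factor that drives lysosome formation, which fell from 23, 28.2, 27.3 and 30.3 CPM to 0.43, 1.17, 1.55 and 1.58 CPM (log2 fold change -4.50, SE 0.19, adjusted p = 3.3e-19).

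**Figure D4:**
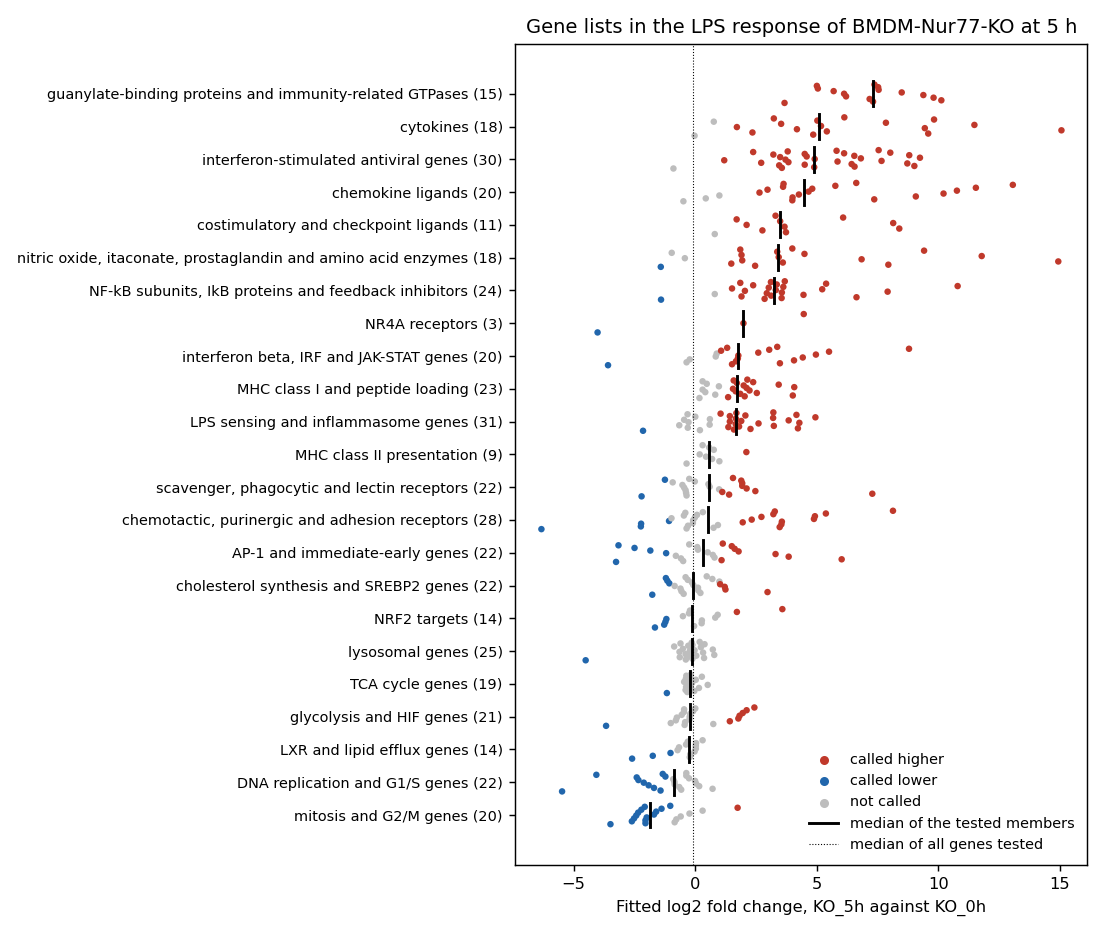
Fitted log2 fold change of KO_5h against KO_0h (horizontal axis) of every tested member of 23 gene lists (rows, with the number of members tested), colored by call. Black bars mark list medians, from 7.32 for the guanylate-binding proteins and immunity-related GTPases to -1.84 for the mitosis and G2/M genes, and the dotted line marks the median of all genes tested, -0.09.

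The levels at the other times place the 5 h values within the course of BMDM-Nur77-KO. These contrasts share the KO_0h libraries, and the group means are set side by side without a test. Tnf was at 3833 CPM after 1 h, 994 CPM after 5 h and 432 CPM after 18 h, and Nfkbia at 1475, 697 and 372 CPM. Fos was at 423, 40.8 and 24.5 CPM, and the remaining Nr4a1 transcript at 190, 0.314 and 0.226 CPM. For these genes, which respond early, the 5 h level was below that at 1 h. Rsad2 was at 149 CPM after 1 h, 23021 CPM after 5 h and 18005 CPM after 18 h, Il6 at 3.92, 357 and 52.4 CPM and Cd69 at 24.5, 2844 and 641 CPM, so that the 5 h mean was the highest of the 3. Others were higher still at 18 h, such as Nos2 with 918 CPM after 5 h and 1884 CPM after 18 h, Irf7 with 505 and 2094 CPM and Ccl5 with 1357 and 4427 CPM. Tfeb, at 1.18 CPM after 5 h, was at 36.1 CPM after 18 h, and Hmox1, which fell from 419 ± 17.7 to 184 ± 51.6 CPM at 5 h, was at 2515 CPM. The 5 h call of Hmox1 was lost with GC-corrected counts, at a log2 fold change of -0.96.

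The same contrast in BMDM-WT, which shares no library with that of BMDM-Nur77-KO, had 1802 genes higher (16.1%) and 1944 lower (17.4%). Of the genes higher in BMDM-Nur77-KO, 1639 were also higher in BMDM-WT, 89% of the BMDM-Nur77-KO genes and 91% of the BMDM-WT genes. Of the lower genes, 1549 were shared, 87.1% and 79.7%. Across the 11186 genes, which are not independent, the log2 fold changes of the 2 genotypes had a Pearson correlation of 0.96 and a Spearman correlation of 0.936, given as a description. Of the list medians, that of the guanylate-binding proteins and immunity-related GTPases lay furthest apart, at 5.68 in BMDM-WT and 7.32 in BMDM-Nur77-KO, followed by the 3 NR4A receptors with 1.15 and 1.99. The interferon-stimulated antiviral genes were at 4.36 and 4.91, the NF-kB list at 3.09 and 3.23 and the mitosis genes at -1.71 and -1.84.

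The difference between the responses was tested as the interaction of genotype and LPS at an adjusted p under 0.05. The response was higher, that is more positive, in BMDM-Nur77-KO for 202 genes (1.81%) and lower for 149 (1.33%). Without KO_5h replicate 1, these counts were 238 and 165, of which 165 and 129 were also called with it. Of the 1841 genes higher at 5 h in BMDM-Nur77-KO, 65 had a higher and 54 a lower response than in BMDM-WT. Of the 1779 lower genes, 41 and 29 did. Another 162 genes with a different response were not called at 5 h against 0 h in BMDM-Nur77-KO.

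The levels behind these differences were then read at each time. Of the 65 induced genes with a higher response, in 37 (56.9%), all KO_0h libraries were below all WT_0h libraries, a position held by 13.4% of all genes tested. In 33 (50.8%), all KO_5h libraries were above all WT_5h libraries, as for 8.98% of all genes. In the 54 induced genes with a lower response, all KO_0h libraries were above all WT_0h libraries in 28 (51.9%, against 9.45% of all genes), and all KO_5h libraries were below all WT_5h libraries in 29 (53.7%, against 9.74%). These positions are part of what the interaction measures and are given as a description.

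The largest differences were taken from genes called in BMDM-Nur77-KO with a mean of at least 10 CPM in 1 of the 4 groups compared. Among these, the 5 largest higher responses were those of Cxcl9, Serpina3f, Slamf1, Trim30d and Iigp1. Cxcl9 was at 0.201 ± 0.161 CPM in KO_0h and 3.45 ± 0.775 CPM in WT_0h, and at 1876 ± 720 and 869 ± 27.4 CPM at 5 h (SD, n = 4 each). The log2 difference of the responses was 5.07 (adjusted p = 0.0022), or 4.79 without KO_5h replicate 1 (adjusted p = 0.0028). Trim30d, of a family of antiviral TRIM proteins, was at 1.71 ± 0.25 and 19.5 ± 2.54 CPM at 0 h, and at 395 ± 66.7 CPM in KO_5h and 485 ± 48.6 CPM in WT_5h. Its difference of 3.20 (adjusted p = 4.2e-10) thus came with a 5 h mean that was not above that of BMDM-WT. The same held for Acod1, with 2.44 CPM in KO_0h, 5.98 CPM in WT_0h, 8667 CPM in KO_5h and 9475 CPM in WT_5h (difference 1.15, adjusted p = 0.0073). The Serpina3 and Trim30 genes have close copies, so that their shares of reads are uncertain.

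Serpina3f, a protease inhibitor, differed by 3.46 (adjusted p = 0.0014) with 0.174 and 1.65 CPM at 0 h and 336 and 272 CPM at 5 h. Iigp1 differed by 2.99 (adjusted p = 7.7e-04). Slamf1, a receptor of activated myeloid and lymphoid cells, stood out at 5 h, with 46.3, 49.5, 42.1 and 42.4 CPM in KO_5h and 15.3 ± 1.02 CPM in WT_5h (difference 3.44, adjusted p = 0.0064), and had 2 counts in the 4 KO_0h libraries. With so few counts at KO_0h, the fitted differences of Slamf1, Cxcl9 and Serpina3f depend on the prior count. In the lists, 7 of the 15 guanylate-binding proteins and immunity-related GTPases had a higher response, as had 4 of the 30 interferon-stimulated antiviral genes. The first list summed to 196 to 213 CPM in KO_0h and 323 to 440 CPM in WT_0h. At 5 h, it summed to 20093 to 32261 CPM in KO_5h and 18595 to 20443 CPM in WT_5h. For the antiviral genes, the sums were 1517 to 1682 and 1735 to 2079 CPM at 0 h. At 5 h, they were 72854 to 97215 CPM in KO_5h and 74624 to 82393 CPM in WT_5h. Among the 20 chemokine ligands, 3 (Cxcl2, Cxcl9 and Cxcl10) had a higher and 1 (Ccl9) a lower response. Irf1 was 0.97 higher in its response (adjusted p = 2.5e-05), with 54.4 ± 2.84 CPM in KO_0h, 95.6 ± 12.5 CPM in WT_0h, 1171 ± 125 CPM in KO_5h and 1053 ± 27.4 CPM in WT_5h.

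Under the same limits, the 5 largest lower responses were those of Itgb8, Fam20c, Selp, Irf4 and Adora2b. Fam20c, a kinase of secreted proteins, fell in BMDM-Nur77-KO from 235, 237, 247 and 269 CPM to 27.3, 43.6, 49.5 and 45.5 CPM, whereas BMDM-WT went from 394 ± 28 to 263 ± 16.4 CPM (difference -1.99, adjusted p = 5.5e-09). Pfkfb3 rose from 69.4 to 246 CPM in BMDM-Nur77-KO and from 46.8 to 336 CPM in BMDM-WT (difference -1.02, adjusted p = 5.9e-08). Adora2b, an adenosine receptor, reached 20 ± 3.06 CPM in KO_5h and 37.6 ± 1.5 CPM in WT_5h (difference -1.23, adjusted p = 9.7e-04). Selp, encoding P-selectin, and Itgb8, an integrin subunit, started higher in KO_0h, at 3.26 and 1.07 CPM against 1.1 and 0.249 CPM in WT_0h, and reached 19.4 and 23.1 CPM in KO_5h against 22.6 and 25 CPM in WT_5h. Irf4 fell further in BMDM-Nur77-KO, with a difference of -1.80 (adjusted p = 0.0012).

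**Figure D5:**
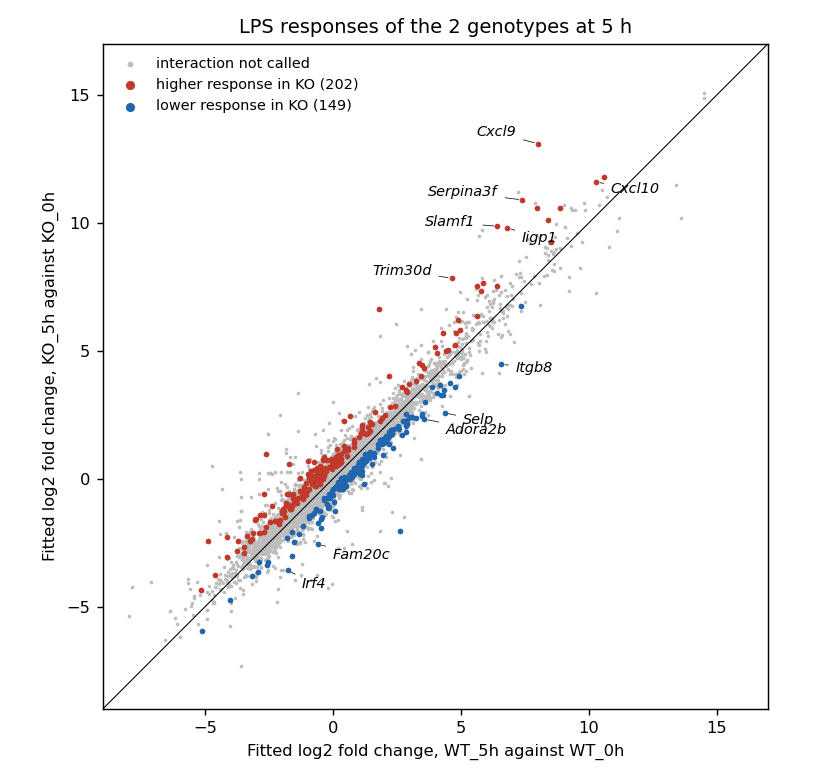
Fitted log2 fold change at 5 h against 0 h of LPS in BMDM-Nur77-KO (vertical axis) and in BMDM-WT (horizontal axis) for the 11186 genes tested, with the line of equal response. Red points are the 202 genes with a higher response in BMDM-Nur77-KO, blue points the 149 with a lower response and grey points the rest, and most of the colored points lie close to the line.

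Markers of other cell types were low in the 8 libraries. The summed level of 10 neutrophil markers was 35.2 to 43.3 CPM at KO_0h and 50.2 to 59 CPM at KO_5h, and the 5 tested were not called. The 6 B cell markers summed to 1.52 to 3 CPM and 2.46 to 3.98 CPM, and the 5 mast cell markers to 2.28 to 3.44 CPM and 1.09 to 2.13 CPM, mostly from Kit. T and NK cell markers stayed at or under 0.362 CPM and erythroid markers at or under 0.314 CPM, with Cd3d, Klrb1c and Hbb-bt at 0 counts in all 8. The 5 dendritic cell markers summed to 1.45 to 2.21 CPM at KO_0h and 13.1 to 26.6 CPM at KO_5h. Among them, Xcr1 rose from 0.543, 0.626, 1.14 and 0.786 CPM to 20.9, 15.5, 9.76 and 12.8 CPM, and Xcr1 and Clec9a were called higher in BMDM-WT as well. The rise was not shared by the rest of this list, which was below the expression limit of the test. Zbtb46 had 5 to 10 counts per library at KO_0h and 3 to 6 at KO_5h. Flt3 had 0 to 2 counts and Siglech 0 to 3 at either time. The 7 fibroblast markers, all below the expression limit of the test, summed to 0.438 to 0.914 CPM at KO_0h and 2.66 to 4.09 CPM at KO_5h, mostly from Pdgfrb, with Lum at 0 counts. Their part in the results was not tested.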

How the data were processed

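The authors deposited 1 table of expected counts per RefSeq transcript without normalization, made from strand-specific libraries aligned to mm10 with HISAT2 2.1.0 and counted with HOMER at default settings, with no strand option named. Counts were rounded to whole numbers and 25067 genes were represented by their most abundant transcript (by mean count). Unnamed transcripts (0.233% to 1.37% of a library) were left out.

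With edgeR 4.0.16 in R 4.3.3, TMM scaling and 1 mean per group over 32 libraries, 11186 genes whose group mean exceeded 1 RPKM somewhere in the series entered the quasi-likelihood test, and p-values were adjusted after Benjamini and Hochberg. The test was checked on simulated data. CPM are scaled by TMM. Intervals and floors (3 counts per group) cover counting error only. The 8 libraries, the gene lists and the tests were chosen with earlier results of these data known. Named genes were Nr4a1 to Nr4a3 and the 8 largest changes each way with at least 10 CPM and no overlap. From each list came the 3 called members with the highest RPKM and up to 2 called the other way. The 5 largest differences of response each way were added, among genes called in BMDM-Nur77-KO with at least 10 CPM in 1 of the 4 groups compared. Other members named were chosen after their values were seen. Promoters and motifs were read from RefSeq (GRCm38.p6). The alternatives, with DESeq2 1.42.0 among them, are given below, and the GC correction was added after seeing the data. Some members of the gene lists are counted but not reported by name here.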

Additional observations from a re-analysis of the deposited data

Results flagged for a closer look

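Among the 99 named genes, a single library stood far from the other 3 of its group in 12 of 193 groups tested by Dixon's ratio, where chance flags about 1 in 20. In KO_5h replicate 1, Il6 was at 492 CPM (others 302 to 331), Cxcl10 at 7096 CPM (6489 to 6591), Irf8 at 1599 CPM (1803 to 1841), Cd83 at 577 CPM (781 to 814) and Insig1 at 178 CPM (147 to 152). In KO_5h replicate 3, Cxcr4 was at 0.483 CPM (0.753 to 0.788) and Cnr2 at 1.74 CPM (0.837 to 0.986). In KO_0h replicate 4, Cxcr4 was at 66.1 CPM (51.6 to 53.6), Irf8 at 188 CPM (160 to 164) and Ccr2 at 68.2 CPM (89.7 to 92.1). Casp4 was at 25.3 CPM in KO_0h replicate 3 (21.6 to 22.2) and Srxn1 at 113 CPM in KO_0h replicate 2 (138 to 143).

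The LPS response differed between the genotypes by edgeR's interaction test for 21 named genes. The log2 difference, BMDM-Nur77-KO minus BMDM-WT, was 5.07 for Cxcl9, 3.46 for Serpina3f, 3.44 for Slamf1, 3.20 for Trim30d, 2.99 for Iigp1, 1.93 for Gbp2, 1.71 for Gbp5, 1.26 for Cxcl10, 1.15 for Acod1, 0.97 for Irf1 and 0.47 for Irf8. It was -2.11 for Itgb8, -1.99 for Fam20c, -1.81 for Selp, -1.80 for Irf4, -1.23 for Adora2b, -1.15 for Slc7a11, -1.02 for Pfkfb3, -0.82 for Cd300lb, -0.71 for Vegfa and -0.30 for Tnfaip3. The call of Slc7a11 was lost in 11 of the alternatives, each leaving out 1 library, that of Tnfaip3 in 10, among them the replicate block and the compared libraries alone, and that of Slamf1 in 1, without WT_0h replicate 4.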

How the results depend on the processing

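Filters moved the counts of the LPS response more than the tool or scaling. Without a filter on low counts, BMDM-Nur77-KO had 2330 higher and 2327 lower genes and BMDM-WT 2223 and 2600, and with edgeR's own filter 2024 and 2100, and 1976 and 2358. In BMDM-Nur77-KO, leaving out single libraries gave 1735 to 1891 higher and 1717 to 1906 lower genes. DESeq2 gave 1935 and 1627, and GC-corrected counts, an alternative chosen after seeing the data, gave 1929 and 1551. The 8 compared libraries alone gave 1824 and 1528, the lowest count of lower genes among the alternatives. Without a limit on the fold change, BMDM-Nur77-KO had 3704 higher and 4268 lower genes, and BMDM-WT 3442 and 4371. At a limit of 0.58, 3044 were lower in BMDM-Nur77-KO and 3193 in BMDM-WT.

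For the differences between the responses, GC-corrected counts gave 342 higher and 343 lower responses, the 16 compared libraries alone 85 and 79, and a log2 difference over 1 left 50 and 19. DESeq2 gave 252 lower responses and no filter on low counts 94. Leaving out single libraries gave 129 (without KO_0h replicate 3) to 309 (without KO_5h replicate 4) higher and 96 (without KO_0h replicate 3) to 204 (without KO_5h replicate 3) lower responses. The cause was not tested.

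Whether the replicate numbers pair the libraries was not settled. Deviations of same-numbered KO libraries correlated at 0.27, 0.05, -0.14 and 0.47, and 2 of 4 matched their own number best, while no BMDM-WT library did. These 2, replicates 1 and 4, followed GC content the same way at 0 h and 5 h (rho -0.45 and -0.65, and 0.60 and 0.59). The correlations can therefore not separate pairing from GC content. With the replicate block, BMDM-Nur77-KO had 1820 genes called up and 1793 called down, and 146 responses were higher and 105 lower than in BMDM-WT.

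No value was reversed. Of 1584 log2 fold changes of 99 named genes over the alternatives, 1562 kept their call, and the others belonged to 7 genes, namely Stab1, Hmgcs1, Ccna2, Mylip, Fos, Hmox1 and Srxn1. Of 504 interaction values, 482 kept theirs, the others being of Tnfaip3, Slc7a11 and Slamf1. Of 828 counts of list members called, 773 stayed within 1.5 times, and 55, in 22 of 46 list counts, did not. Depth limits genes of few counts at 0 h.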
